A study of Homo sapiens with 45 samples.

Results

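Ribosome biogenesis factors are the proteins that build the ribosome, and 37 of their genes were followed across 45 arrays of A375 cells, an established human melanoma line with an activating BRAF mutation. The genes are a list of nucleolar and ribosome assembly factors, and the rule that makes the list names genes by function and uses no value of these arrays. Still, this list and those set beside it were chosen with earlier results of these data known. The arrays gave a value for 33 of the 37, out of 19775 genes measured in all, with the brightest probe set (on average over the arrays) standing for each gene. NOP56, DKC1 and BOP1 had only probe sets that carry the names of several genes, GNL3 was not in the table of gene names, and these 4 are named only. Of the 33 genes, 28 had a median above the noise limit, which is 1.5 times the median of a bacterial control probe set (8.59 on the log2 scale). RRP9, NOC4L, UTP20, WDR43 and POLR1A lay below it.

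A total of 39 arrays carry RNA from A375 cells 48 hours after transfection with an siRNA pool against 1 gene, 3 from cells with control siRNA and 3 from untreated cells. Each targeting siRNA has 1 culture and 1 array, so differences after a single siRNA have no replicate and are described without a test. The arrays were made in 3 batches, with 9 in KD1, 23 in KD2 and 7 in KD3. Each batch holds different siRNAs, so batch and siRNA choice cannot be told apart, while for the arrays of control siRNA and of untreated cells no batch is given. No source says whether the 3 arrays of a control group came from separate cultures, so their spread may be technical.

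A ribosome is made in the nucleolus, where RNA polymerase I transcribes the ribosomal RNA precursor. Small nucleolar ribonucleoproteins (snoRNPs) modify that precursor, and assembly factors fold and cut it into the small and the large subunit before export. The pathway uses much of the energy of a growing cell, and both MYC and the ERK kinases are known to stimulate it. Many of its genes carry an E-box (CACGTG), the sequence that MYC and its partner MAX bind, although other factors bind it as well.

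Of the 37 genes, 31 had a promoter window in the RefSeq table (GRCh38.p14, from 250 bases before the gene start to 50 after). An E-box was found in 14 of the 31 (45.2%), against 8.77% of all 27305 genes in the table, 10.9% of the genes measured here and 14.2% of those above noise. Where a gene had several windows, any of them counted. CACGTG reads the same on both strands. All 14 had an E-box within 50 bases of the start, a distance chosen after the positions were seen, against 3.51% of all genes and 6.20% of those above noise. Among 66 other ribosome biogenesis genes with a window, 22 held an E-box (33.3%), and among 45 ribosomal protein genes 3 did (6.67%). The E2F-type sequences TTTGGCGC and TTTCGCGC, searched on both strands, were in none of the 31 and in 0.795% and 0.630% of all genes. The following stretches are examples, most of them from genes that recur in the comparisons of the batches and of the single siRNAs. Capitals mark the E-box. The first 6 run from 70 bases before the start to 30 after, and the last 2 are 30 bases within the first 50 of the gene.
NOC3L (chr10:94362910-94363009, minus strand): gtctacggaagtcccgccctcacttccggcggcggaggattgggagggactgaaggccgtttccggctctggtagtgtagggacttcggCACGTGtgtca
NOP14 (chr4:2963377-2963476, minus strand): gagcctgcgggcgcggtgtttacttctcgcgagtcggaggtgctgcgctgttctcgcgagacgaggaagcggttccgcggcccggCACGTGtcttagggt
RRP9 (chr3:51941875-51941974, minus strand): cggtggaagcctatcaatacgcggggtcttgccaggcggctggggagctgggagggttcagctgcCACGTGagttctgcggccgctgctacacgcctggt
PES1 (chr22:30591881-30591980, minus strand): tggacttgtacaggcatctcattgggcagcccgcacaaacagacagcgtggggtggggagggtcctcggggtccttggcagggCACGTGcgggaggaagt
NOP10 (chr15:34343107-34343206, minus strand): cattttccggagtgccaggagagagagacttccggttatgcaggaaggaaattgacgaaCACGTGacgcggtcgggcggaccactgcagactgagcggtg
UTP20 (chr12:101280035-101280134, plus strand): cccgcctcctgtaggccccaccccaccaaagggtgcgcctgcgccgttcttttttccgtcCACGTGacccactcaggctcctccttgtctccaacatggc
NOP2 (chr12:6568242-6568271, minus strand): gctaggtccggattgCACGTGgagggccgc
BYSL (chr6:41921519-41921548, plus strand): tcagtcccCACGTGcgatccttcccggcaa
The other genes with an E-box were FBL, GAR1, GNL3, WDR43, DDX21 and MYBBP1A. A match describes the letters in the window and does not show that a factor binds there.

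Before the results, 3 properties of the arrays bear on them. Control siRNA array 3 and untreated array 3 were nearly the same, with 95.4% of probe sets within 10% of each other, against at most 59.9% in any other pair. The batches differed widely, since 47.5% to 54.2% of all genes were called between any 2 of them. Of the melanocyte lineage markers, SOX10, MITF, S100B and MIA had medians above noise while TFAP2A, S100A1, PMEL, MLANA, TYR and TYRP1 had medians below it. The median of each of 16 markers of leukocytes, epithelium, endothelium and fibroblasts also lay below it. Between KD3 and KD2, S100B differed by -2.28 on the log2 scale and SOX10 by -0.68.

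Between KD3 and KD2, single ribosome biogenesis genes differed in both directions, and their median lay near that of all genes (-0.03). The largest difference was -1.02 on the log2 scale, by a POLR1A probe set below the noise limit. Above noise the largest were those of NPM3 (0.77) and NOP2 (-0.77). Of the 33 genes, 11 were higher and 13 lower in KD3 than in KD2 (limma, adjusted p under 0.05 over all probe sets), with a median log2 difference of -0.01. In all batch comparisons, SE and p come from the spread of arrays within a batch. Each batch was made once, so they do not measure how batches vary. The share called, 24 of 33, compares with 47.5% of all genes. Among genes above noise it was 20 of 28, against 72.9%, which is near that background, with 8 higher, against 31.8%, and 12 lower, against 41.2%. Of those 28 genes, 5 had batches that did not overlap, against 35.3%. Among 77 other ribosome biogenesis genes, 34 were higher and 20 lower (median 0.09), led by IMP3 (-0.97), UTP3 (-0.87) and RPF2 (0.76). Of 51 ribosomal protein genes, 7 were higher and 6 lower (median 0.01), the largest difference being that of RPS15 (-0.27). In the same comparison 26 of 33 DNA replication genes were lower and none higher (median -0.62, with PCNA at -1.71, MCM10 at -1.13 and FEN1 at -1.11). The batches also differed in MYC. Its mean log2 value was 8.28 in KD1, 8.53 in KD2 and 9.27 in KD3, higher in KD3 than in KD2 by 0.74 (SE 0.08, limma adjusted p = 4.0e-11) and lower in KD1 than in KD2 (-0.25, adjusted p = 0.00324), with a median over all arrays below the noise limit. Of 13 measured genes with an E-box, 7 were higher and 5 lower in KD3, and of 15 without one, 4 were higher and 5 lower. Of all genes, with or without an E-box, 20.5% were higher and 27.0% lower. RRP9, UTP20 and WDR43 among the 13, and NOC4L and POLR1A among the 15, lie below noise. A relation of these counts to MYC was not tested.

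**Figure D1:**
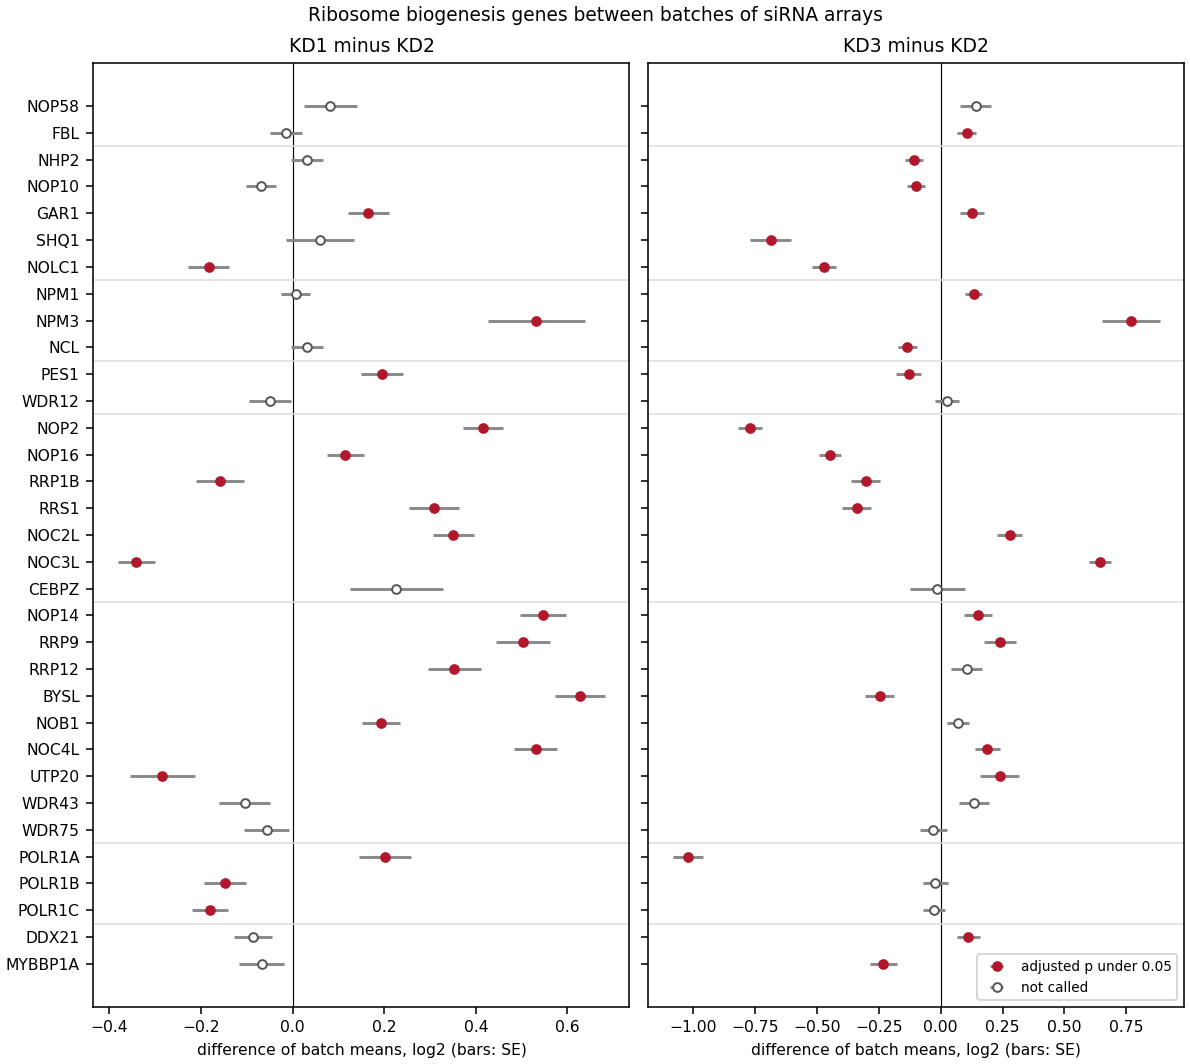
Difference of batch means on the log2 scale (horizontal axes, with SE bars) for each of 33 ribosome biogenesis genes, for KD1 minus KD2 on the left and KD3 minus KD2 on the right. Filled points passed an adjusted p under 0.05, and grey lines separate the genes by role. The small subunit genes BYSL, NOP14, NOC4L and RRP9 lie at the right in KD1, and POLR1A, NOP2 and SHQ1 at the left in KD3. The probe sets of NOC4L, RRP9 and POLR1A are below the noise limit.

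Among the snoRNP genes, the box C/D proteins direct methylation of ribosomal RNA and the box H/ACA proteins direct pseudouridylation. Fibrillarin (FBL), the methyltransferase of the box C/D particle, was slightly higher in KD3 than in KD2 (0.10, not called with each array centred on the probe sets above noise), and its core partner NOP58 was at 0.14 (adjusted p = 0.0676). Of the H/ACA genes, SHQ1, a chaperone that assembles the particle, had the largest difference. Its log2 value lay between 9.33 and 9.53 in KD3 (median 9.40), between 9.22 and 10.41 in KD2 (median 10.16) and between 9.97 and 10.37 in KD1 (median 10.17). KD3 lay wholly below KD1, and overlapped KD2 only through the array of CDC16 siRNA. The difference between KD3 and KD2 was -0.69 (SE 0.08, adjusted p = 1.4e-09), and the other SHQ1 probe set gave -0.63. NOLC1, a nucleolar scaffold for snoRNPs, was lower in KD3 by -0.47 (SE 0.05), and its other probe sets gave -0.46 and -0.28. The structural proteins NHP2 and NOP10 were lower by -0.11 and -0.10, and GAR1 was higher by 0.13, a call that was also lost with centring.

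The nucleolar chaperone NPM3 had log2 values from 9.28 to 9.71 in KD3 (median 9.47), from 7.89 to 9.20 in KD2 (median 8.69) and from 8.92 to 9.52 in KD1 (median 9.25). All arrays of KD3 exceeded those of KD2, by 0.77 on average (SE 0.12, adjusted p = 2.9e-07). Its relative NPM1 (nucleophosmin), among the brightest probe sets here, was higher in KD3 by only 0.13, also without overlap, but one of its other 2 probe sets was lower (-0.09). Nucleolin (NCL) was lower by -0.13. Of the PeBoW complex, which matures the large subunit RNA, PES1 was lower in KD3 (-0.13) and WDR12 was at 0.03 (adjusted p = 0.725).

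Of the measured ribosome biogenesis genes, only NOP2 and NOC3L of the large subunit group had batches apart in every pair. The share of all genes with such batches was not computed. Among all genes above noise, 35.3% did not overlap between KD3 and KD2 and 52.1% between KD3 and KD1. Of the 28 ribosome biogenesis genes above noise, 5 and 9 did not, so separation was less frequent among them. Between KD1 and KD2 the shares were near each other, 5 of 28 against 15.6%. NOP2, a ribosomal RNA methyltransferase known as a proliferation antigen, had log2 values from 9.13 to 9.34 in KD3 (median 9.26), from 9.80 to 10.19 in KD2 (median 10.00) and from 10.25 to 10.63 in KD1 (median 10.45). NOC3L, which accompanies large subunit precursors, ran the other way, from 11.29 to 11.53 in KD3 (median 11.44), from 10.61 to 10.96 in KD2 (median 10.76) and from 10.30 to 10.57 in KD1 (median 10.45). For both genes no value of one batch overlapped another batch. The difference between KD3 and KD2 was -0.77 for NOP2 (SE 0.05, adjusted p = 3.4e-18) and 0.64 for NOC3L (SE 0.04, adjusted p = 1.4e-16). Between KD3 and KD1 it was -1.18 for NOP2 (SE 0.06) and 0.98 for NOC3L (SE 0.05). Of the others in this group, NOP16 (-0.45), RRS1 (-0.34) and RRP1B (-0.30) were lower in KD3 than in KD2 and NOC2L was higher (0.28), while for RRP1B a dim second probe set had the opposite sign (0.45). RRS1, which acts in the incorporation of the small RNA of the large subunit, was lower in KD3 than in KD1 by -0.65 (SE 0.07, adjusted p = 7.2e-11).

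**Figure D2:**
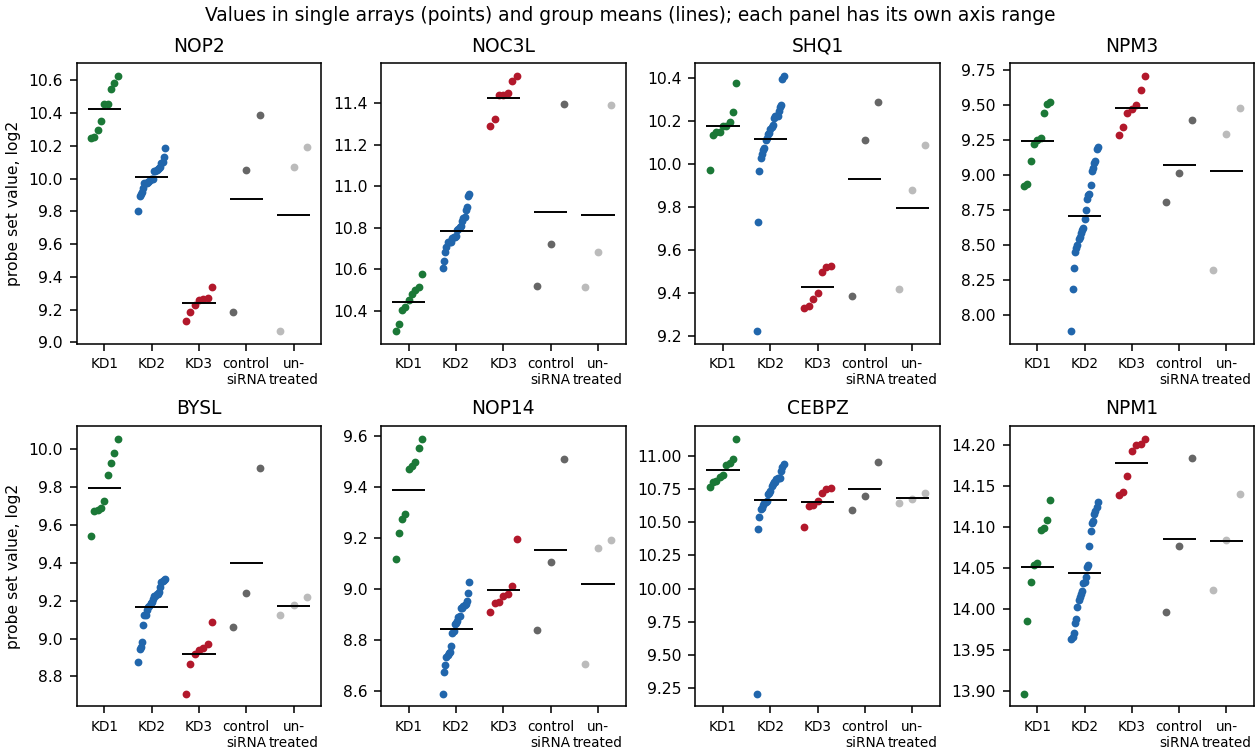
Log2 values (vertical axes, ranges differ between panels) of 8 ribosome biogenesis genes in single arrays of KD1, KD2, KD3, control siRNA and untreated cells, sorted by value within a group, with lines at group means. The 3 batches are apart for NOP2 and NOC3L, and for these genes the control siRNA and untreated arrays spread over about the range of the batches. The lone low points in KD2 are the CDC16 siRNA array for SHQ1 and the CEBPZ siRNA array for CEBPZ.

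Between KD1 and KD2, BYSL, NOP14 and NOC4L of the small subunit and NOP2 and NOC2L of the large were higher in KD1 without overlap. NOC3L of the large subunit was lower without overlap. Of the 33 genes, 14 were higher and 6 lower in KD1 than in KD2 (limma, 20 called, against 49.1% of all genes), with a median of 0.06. The 14 higher genes compare with 26.2% of all genes, and the 11 of 28 above noise with 33.2%. Among genes above noise, 16 of 28 were called, against 67.1%. With each array centred on the probe sets above noise, 13 were higher and 10 lower. Of the 9 small subunit genes, 6 were higher and 1 lower (median 0.35), and 4 of the 6 lie above noise. Of the 7 large subunit genes, 4 were higher and 2 lower (median 0.23). BYSL, needed for late steps of small subunit assembly, had log2 values from 9.54 to 10.06 in KD1 (median 9.73), against 8.87 to 9.31 in KD2 (median 9.19), a difference of 0.63 (SE 0.05, adjusted p = 3.7e-13). NOP14 (0.55, SE 0.05, adjusted p = 2.6e-12), its binding partner NOC4L (0.53, SE 0.05, adjusted p = 8.4e-13) and BYSL did not overlap between the 2 batches. RRP9, a protein of the U3 particle that starts small subunit processing, was higher by 0.50 (SE 0.06), though its probe set and that of NOC4L are below the noise limit. RRP12 (0.35, but not called by its probe set of largest variance, at 0.14) and NOB1 (0.19), the nuclease that trims the small subunit RNA, were also higher, and UTP20 was lower (-0.28). WDR43 and WDR75, which join early on the precursor, were at -0.10 and -0.06 (adjusted p = 0.119 and 0.376). NPM3 was also higher, by 0.53 (SE 0.11, adjusted p = 5.1e-05), and NOP2 by 0.42 (SE 0.04). In all, 6 of 33 genes did not overlap between KD1 and KD2, against 7.68% of all genes. Above noise 5 of 28 did not (17.9%), against 15.6%, which is near that background. Of the 77 other ribosome biogenesis genes, 31 were higher and 21 lower, led by NIP7 (-0.68), DDX49 (0.50) and SENP3 (0.42).

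Between KD3 and KD1, 7 of the 33 genes were higher and 15 lower in KD3 (limma, 22 called, against 54.2% of all genes), with a median of -0.14 against -0.06 over all genes. Among those above noise, 17 of 28 were called, against 76.7%, with 5 higher, against 34.7%, and 12 lower, against 42.0%, and 9 did not overlap, against 52.1%. BYSL was lower by -0.87 (SE 0.07) and SHQ1 by -0.75 (SE 0.10), and neither gene's batches overlapped. In all, 11 genes did not overlap between KD3 and KD1, against 27.9% of all genes, and 6 did not between KD3 and KD2, against 17.6%. Of the 77 other ribosome biogenesis genes, 31 were higher and 30 lower, with UTP3 at -1.01, NIP7 at 0.88 and NMD3 at 0.85.

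Of the RNA polymerase I subunits, POLR1A, the largest, had the largest batch difference of all 33 genes, by a probe set below the noise limit. It ranged from 6.83 to 7.19 in KD3 (median 7.07) and from 7.85 to 8.40 in KD2 (median 8.05), and had a median of 8.32 in KD1. KD3 lay wholly below both. KD3 was lower than KD2 by -1.02 (SE 0.06, adjusted p = 2.1e-18) and lower than KD1 by -1.22 (SE 0.07). The other POLR1A probe sets, also dim, gave -0.08 and 0.06 between KD3 and KD2, so the difference rests on 1 probe set. POLR1B and POLR1C were at -0.02 and -0.03 (adjusted p = 0.774 and 0.666), with dim probe sets of POLR1B between -0.64 and 0.01. Between KD1 and KD2, POLR1A was higher (0.20) and POLR1B (-0.15) and POLR1C (-0.18) were lower. Of the genes associated with transcription of ribosomal DNA, the helicase DDX21 was at 0.11 in KD3 against KD2 (adjusted p = 0.0481, not called without 26 of the 39 arrays when each was left out in turn) and the MYB-binding protein MYBBP1A was lower (-0.23), although a dim second probe set of MYBBP1A gave 0.47.

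The knockdowns closest to the pathway were those of MAP2K1, whose product MEK1 phosphorylates ERK, and of CEBPZ, the human counterpart of a yeast protein of early large subunit precursors and itself one of the 33 genes. In the array of its own siRNA, CEBPZ was at 9.21 against a KD2 median of 10.74 (a log2 difference of -1.53, or 2.89-fold lower). The other KD2 arrays lay between 10.45 and 10.94. MAP2K1 was at 8.04 in its own array against 9.86 (-1.82, or 3.53-fold lower). Each was the lowest of the 39 arrays for its target.

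After MAP2K1 siRNA, most ribosome biogenesis genes lay slightly below the median of KD2. The median over the 33 genes was -0.05, with an SD of 0.04 for the same median over the other KD2 arrays. Lower values were found for 23 of 33 genes, against 47.3% of all genes, and for 19 of 28 above noise, against 57.0%. In the other KD2 arrays the number of the 33 genes below the median ran from 7 (such as RELA siRNA) to 26 (CDK4 siRNA). Only 3 genes were lower by at least 1.2-fold, against 7.93% of all genes, and 1 was higher, against 5.81%. Among genes above noise these were 2, against 11.5%, and 1, against 3.79%. BYSL was at 8.87 (the other KD2 arrays from 8.94 to 9.31), a difference of -0.32. WDR43, below noise, was at 8.26 (others from 8.38 to 8.72), a difference of -0.30. NOP58 (-0.21), WDR75 (-0.21) and WDR12 (-0.19) were also lowest of the 23 arrays in this one, so that 5 of 33 genes were, against 7.29% of all genes. Above noise 4 of 28 were (14.3%), against 12.8%, which is near that background. CEBPZ was at -0.29, lowest of KD2 except for its own siRNA, GAR1 at -0.16 and NOP14 at -0.12. NPM3 (0.40), UTP20 (0.17) and NOB1 (0.12) were the highest. Set against the control siRNA mean, NPM3 was at 0.02, UTP20 at -0.14 and NOB1 at -0.02.

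The 77 other ribosome biogenesis genes had a lower median in the same array, -0.13, with 61 lower, 11 of them by at least 1.2-fold. They were led by NOL10 (-0.49), the polymerase I initiation factor RRN3 (-0.38) and the nucleolar GTPase GNL2 (-0.37). The 33 DNA replication genes were all lower (median -0.49) and 14 of 15 genes of ERK output were (median -0.32). The ribosomal protein genes had a median of 0.00, and MYC, at 8.57, was at its batch median.

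After CEBPZ siRNA, the remaining 32 genes lay close to the KD2 median. Their median difference was -0.05, with 24 lower, against 49.2% of all genes, and 21 of 27 above noise, against 60.0%. This count too lies within the range of the other KD2 arrays, from 7 to 26 of 33. NOP14 alone was lower by at least 1.2-fold (-0.28), against 5.34% of all genes and 4.38% of those above noise. It was also the only one lowest of its batch, against 5.52% and 6.69%, at 8.59 with the other KD2 arrays from 8.68 to 9.03. Next came BYSL (-0.24), SHQ1 (-0.19), UTP20 (-0.18), RRP12 (-0.18), WDR75 (-0.14), NOLC1 (-0.14) and PES1 (-0.12), none of which was the lowest of KD2. NPM3 alone was higher by at least 1.2-fold (0.34), against 5.66% of all genes and 0.938% of those above noise, within a range from 7.89 to 9.20 in the other arrays, and NOP58 and NPM1 were at 0.08 and 0.04. Set against the control siRNA mean, NPM3 was at -0.04 and NOLC1 at 0.07. The NOC genes, whose family includes the yeast counterpart of CEBPZ, lay in the middle of the batch, with NOC2L at -0.02, NOC3L at -0.01 and NOC4L at 0.01. Of the other ribosome biogenesis genes, 51 of 77 were lower (median -0.06), and KRR1, a small subunit factor, was at -0.50, RIOK1 at -0.25 and WDR36 at -0.23. The p53 targets, which rise when ribosome assembly fails in many cells, had a median of -0.02, with 4 of 13 above noise. The ribosomal protein genes were at 0.00.

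**Figure D3:**
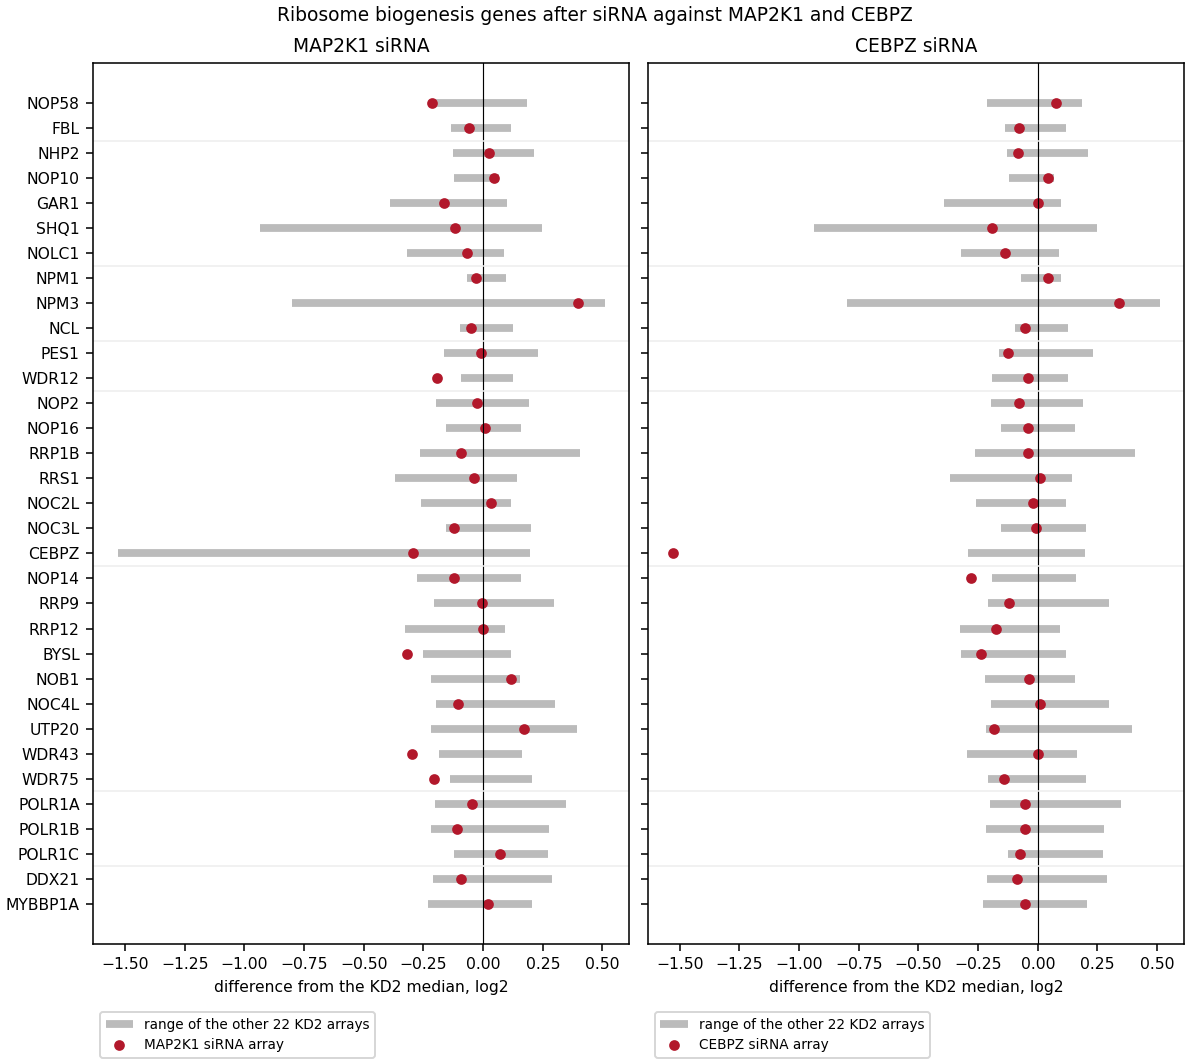
Log2 difference from the KD2 median (horizontal axes) of 33 ribosome biogenesis genes in the array of MAP2K1 siRNA (left) and of CEBPZ siRNA (right), as red points, with grey bars for the range of the other 22 KD2 arrays. BYSL, WDR43, WDR75, WDR12 and, narrowly, NOP58 lie below the bar at the left, and in the right panel NOP14 and CEBPZ itself lie outside it.

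Across the 39 siRNA arrays, CEBPZ in its own array left out, 57 of 1286 values differed from the batch median by at least 1.2-fold, which is 4.43%, against 10.9% of the values of all genes. Among genes above noise it was 43 of 1091, or 3.94%, against 6.39%. Of the 57 values, 12 were of NPM3. For 9 genes, among them FBL, NHP2, NOP10, NPM1 and NCL, no array did. The median SD within batches was 0.11 on the log2 scale, against 0.16 for all genes, 0.12 for genes above noise, 0.04 for ribosomal protein genes and 0.23 for DNA replication genes. The largest single difference other than that of CEBPZ in its own array was in SHQ1 after siRNA against CDC16, a subunit of the anaphase-promoting complex (-0.94, and -0.85 by its other probe set). SHQ1 was at -0.43 after CDK4 siRNA, and at -0.33 by the other probe set. NPM3 was at -0.80 after FOXM1 siRNA, at -0.50 after RELA siRNA and at 0.51 after AKT1 siRNA. RRP12 was at -0.50 after RB1 siRNA, but its other 4 probe sets, all below noise, lay between -0.24 and 0.04 there.

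The arrays with the lowest medians over the 33 genes were those of siRNA against 2 replication proteins. After siRNA against MCM2, a subunit of the replicative helicase, the median was -0.12, the lowest of the 39. In that array 30 of 33 genes were below the KD3 median, against 46.4% of all genes, and 18 were the lowest of the 7 arrays, against 16.7%. Only 2, WDR12 and NOP58, were lower by at least 1.2-fold, against 5.18% of all genes and 5.44% of those above noise. Among genes above noise the counts were 26 of 28, against 50.9%, and 16 of 28, against 20.7%. The array was singled out by this median, so these counts are a description. WDR12 (-0.29), NOP58 (-0.27), NOC4L (-0.26), NOLC1 (-0.26) and BYSL (-0.23) had the largest differences, and only NOP10 and WDR43 were higher. MYC was at 8.97 there, against a KD3 median of 9.27 and other arrays from 9.07 to 9.60. Of the 77 other ribosome biogenesis genes, 59 were lower (median -0.11) and 38 the lowest of KD3. After siRNA against PCNA, the sliding clamp of DNA polymerase, the median was -0.09, with 22 of 33 lower, against 44.7% of all genes, and 15 the lowest of the 9 arrays of KD1, against 13.0%. Among genes above noise these were 19 of 28, against 56.6%, and 15 of 28, against 20.2%. CCND3 (-0.06) and CDK4 (-0.06) siRNA came next. The highest median was that after CTNNB1 siRNA, at 0.08 with 26 of 33 higher, against 46.7% of all genes, and 23 of 28 above noise, against 58.1%. It was followed by ETS1 (0.07) and ABL1 (0.07) siRNA. Neighbours in this order differ by less than the SD of 0.04 that the median has within KD2.

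These medians followed those of the other ribosome biogenesis genes. Over the 39 arrays, the median of the 33 genes and that of the 77 others, which share no gene, had a Spearman's rho of 0.88 (Pearson's r 0.89, and 0.87 without the 2 arrays farthest from the median). Within KD1, KD2 and KD3 rho was 0.89, 0.87 and 0.94. With the median of the 33 DNA replication genes rho was 0.64 (r 0.61, and 0.53 without the 2 farthest arrays), and 0.76, 0.60 and 0.46 within the batches. With that of the 51 ribosomal protein genes it was -0.25 (r -0.22, and -0.17 without the 2 farthest), and its sign differed in KD3 (0.21). The median of all other genes above noise also moved with it, with rho of 0.61. After subtraction of that median from each array, rho was 0.82 with the other ribosome biogenesis genes, 0.55 with the DNA replication genes and -0.38 with the ribosomal protein genes. The medians of an array come from 1 hybridisation, and no p-value is given for scores over chosen genes.

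**Figure D4:**
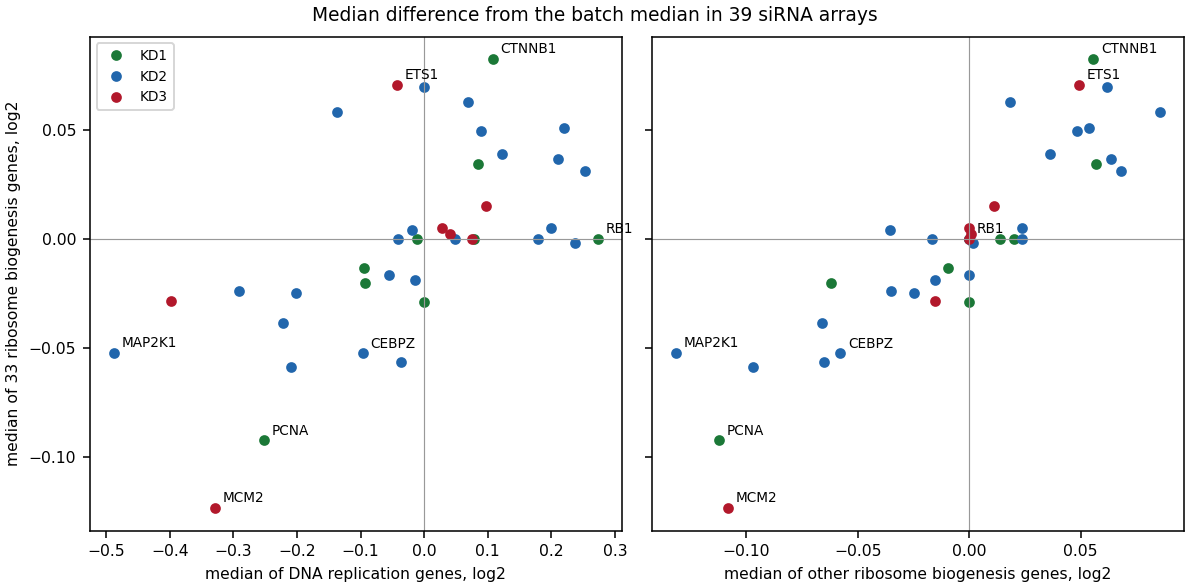
Median log2 difference from the batch median of 33 ribosome biogenesis genes (vertical axes) against that of 33 DNA replication genes (left) and of 77 other ribosome biogenesis genes (right), with 1 point for each of 39 siRNA arrays, coloured by batch. MCM2 and PCNA siRNA lie lowest and CTNNB1 siRNA highest, and the points follow a line more closely at the right (rho 0.88) than at the left (0.64).

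With values centred by batch, 48 of 528 pairs had a Spearman's rho of at least 0.5 over the 39 arrays (9.09%), against 0.515% of all pairs of genes. Among those above noise the share was 42 of 378 (11.1%), against 1.71%. These shares depend on the measure. With Pearson's r they were 4.92% and 6.08%, against 0.601% and 1.79%, and with the probe sets of largest variance 5.87% and 6.35%, against 0.461% and 1.43%. Without centring by batch, 14.0% of the pairs above noise passed, against 12.7%, which is near that background. With centring and Spearman's rho, the share was 7.52% among the other ribosome biogenesis genes, 7.45% among ribosomal protein genes and 88.6% among DNA replication genes. Genes of 1 pathway share arrays, and pairs that share a gene are not independent. WDR75 was related to the most genes, 12 of 32, with a median rho of 0.46, followed by WDR12 and NOP14 with 9 each. The closest pairs were CEBPZ with WDR75 (rho 0.75, and 0.72 without the MAP2K1 and CEBPZ siRNA arrays) and BYSL with WDR12 (rho 0.75, and 0.72 without them). They were picked as the largest, so no test is given. RRP12, MYBBP1A and NPM1 had median rho values of -0.04, 0.00 and 0.02, with single pairs of both signs. The most negative pairs were NPM3 with DDX21 (rho -0.59) and NPM1 with NOP10 (-0.56) and UTP20 (-0.55).

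Of 14 pairs of partners listed with the genes, 9 could be measured, and rho lay between -0.20 and 0.33. Other pairs of the same role were closer, among them RRP12 with UTP20 (rho 0.61), GAR1 with NOLC1 (0.60), NOP14 with WDR75 (0.60), NHP2 with NOP10 (0.38) and POLR1B with POLR1C (0.36), which were picked after their values were seen. NOP14 and NOC4L had a rho of 0.33 (permutation p = 0.0454, adjusted p = 0.392 over all genes) and an r of 0.22 (permutation p = 0.151), which was 0.36 without the CEBPZ and PCNA arrays, where NOP14 was farthest from its median. For WDR43 and WDR75 rho was 0.33 (permutation p = 0.0480, adjusted p = 0.416) and r 0.35 (permutation p = 0.0382). This r fell to 0.16 without the CTNNB1 and MITF arrays, so that r over all arrays depends on them. Neither array is in KD2. NOP58 and FBL had a rho of 0.29 (permutation p = 0.0690, adjusted p = 0.298) and an r of 0.28 (permutation p = 0.0622), which was 0.33 without the FOXO3A and RB1 arrays. Within KD1, KD2 and KD3 rho was 0.07, 0.35 and 0.50 for the first pair, 0.23, 0.54 and 0.11 for the second and -0.13, 0.38 and 0.50 for the third. None of the 9 passed an adjusted p under 0.05, which does not show that they are unrelated. The other 6 were PES1 with WDR12 (0.15), CEBPZ with NOC2L (-0.09), NOC2L with NOC3L (-0.04), POLR1A with POLR1B (0.11) and with POLR1C (0.23), and NPM1 with NPM3 (-0.20).

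**Figure D5:**
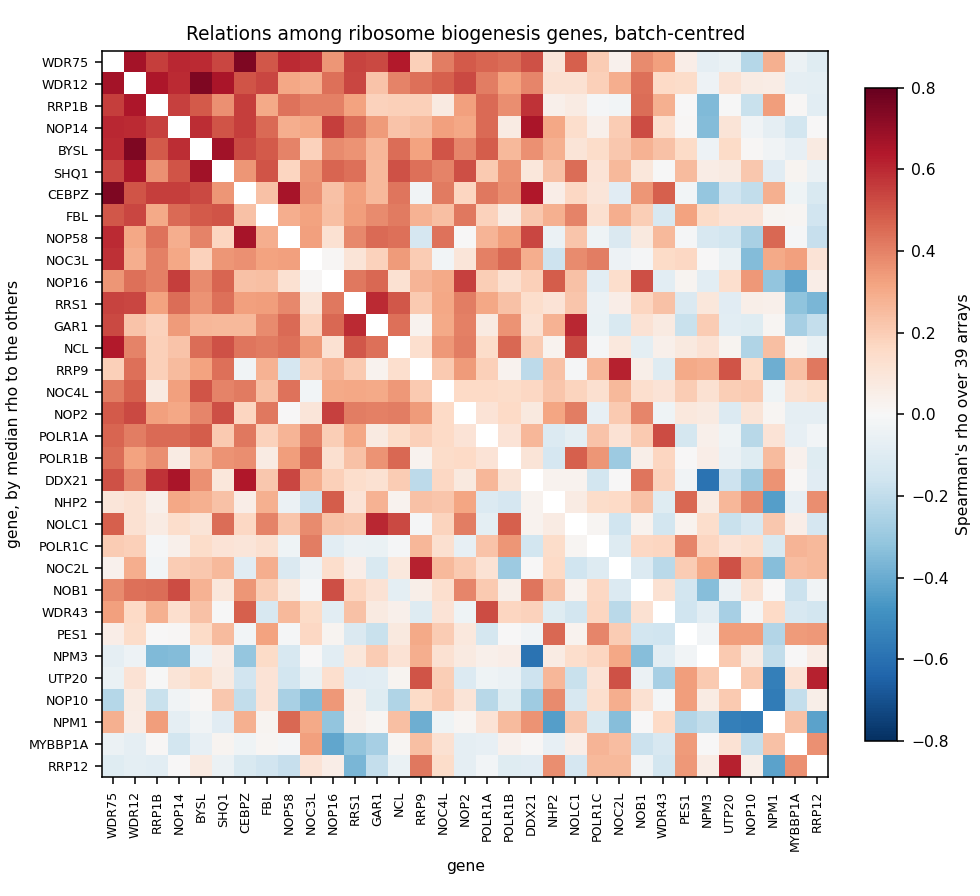
Spearman's rho over 39 siRNA arrays, centred by batch (colour, from blue at -0.8 to red at 0.8), for each pair of 33 ribosome biogenesis genes on both axes, ordered by median rho to the others. The block of positive values at the upper left holds WDR75, WDR12, NOP14, BYSL and CEBPZ, and NPM1, MYBBP1A and RRP12 at the lower end have both positive and negative values, with a median near 0.

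Between control siRNA and untreated cells no difference was detected. None of the 33 genes was called between 3 control siRNA and 3 untreated arrays (limma), against 0.0% of all genes. At an unadjusted p under 0.05 it was also none of the 33, against 0.142% of all genes and 0.0417% of those above noise. This fit does not use the array numbers, so the spread between numbers enters its error. These low shares therefore do not show that the groups are alike. The median difference was 0.10, and the largest was that of UTP20 (0.36, SE 0.33). The spread within each group was wide. NOP2 was at 10.39, 10.05 and 9.18 in control siRNA arrays 1 to 3 and at 10.19, 10.07 and 9.07 in the untreated arrays. NOC3L was at 10.52, 10.72 and 11.39, and at 10.52, 10.68 and 11.39. For both genes the 3 arrays of a group lay about as far apart as the 3 batches, and arrays with the same number lay close together. With the number as a block, none of the 33 was called either, and none had an unadjusted p under 0.05 (limma). Over all 54675 probe sets, 1643 had an unadjusted p under 0.05 with the block and 97 without it.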

How the data were processed

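The 45 arrays are Affymetrix U133 plus arrays of A375 cells. The authors normalised them with RMA (version not given in the sources used here), and deposited linear intensities, which were taken to log2 with no further normalisation. Probe sets were named by GEO's platform annotation with symbols updated through RefSeq: 41097 of 54675 had 1 name, 1801 several and 11777 none. Groups come from the sample labels and batches from the study's table of siRNA targets. Batches, and control siRNA against untreated, were compared in limma 3.58.1 (R 4.3.3) over all probe sets, with Benjamini-Hochberg adjustment. Single siRNA arrays were set against the median of their batch. Correlations used values centred by batch, with 100000 permutations within batches, adjusted over all genes against the first gene of a pair. The limma fits were tested on simulated data. All else was computed in Python 3.11.15 (numpy 2.4.6, pandas 2.3.3, scipy 1.17.1, matplotlib 3.10.9).

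The members and lists were chosen with earlier results of these data known. By rule, the text names CEBPZ, MAP2K1 and MYC, the 6 members with the largest called difference in each batch comparison, the 8 lowest and 3 highest members in the MAP2K1 and CEBPZ arrays, the NOC genes and fixed complex pairs, and the 3 genes of other lists with the largest difference among those above noise, here given for the lists a result turned on. Members named for the MCM2, PCNA and other single arrays, and the closest pairs, were chosen after their values were seen. Control siRNA and untreated arrays of the same number deviated together (r of 0.580, 0.671 and 0.890), so the labels' numbers were taken to pair them. Arrays have no read depth, and the number of arrays and the signal over the noise limit bound the precision. Alternatives varied the probe set, noise filter, centring, reference, variance model, correlation and arrays used.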

Additional observations from a re-analysis of the deposited data

Results flagged for a closer look

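Of 66 groups tested (33 genes in KD1 and in KD3), 5 held an array far from the others of its batch, by the gap to the nearest array relative to the whole range, and chance alone flags about 1 in 20 groups. DDX21 was at 12.13 after RB1 siRNA, above the next array of KD1 at 12.02. WDR75 was at 9.52 after CTNNB1 siRNA, with the next at 9.26, and RRP1B was at 9.95 after PCNA siRNA, with the next higher array at 10.20. In KD3, NOC4L was at 7.90 after MCM2 siRNA, with the next at 8.12, and NOP14 was at 9.20 after ETS1 siRNA, with the next at 9.01. NOC4L lies below the noise limit.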

How the results depend on the processing

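The total counts of genes called between batches, both directions together, stayed within 1.5 times the values given under every alternative run. With each of the 39 arrays left out in turn they ranged from 20 to 25 (KD3 and KD2), from 19 to 21 (KD1 and KD2) and from 20 to 23 (KD3 and KD1). By direction, the count lower in KD1 than in KD2 rose from 6 to 10 with each array centred on the probe sets above noise. The 6 largest differences of each comparison kept their direction and call under all alternatives that gave a value, arrays left out included. Of all called genes, 13 of 24 (KD3 and KD2), 14 of 20 (KD1 and KD2) and 16 of 22 (KD3 and KD1) did. NPM3, NOP2, NOC3L, BYSL, NOP14, NOC4L, RRP9 and RRS1 have 1 probe set, so the choice of probe set could not change them. For POLR1A, the probe sets not used gave -0.08 and 0.06 between KD3 and KD2. With the probe set of largest variance the sign turned for MYBBP1A (0.47), NPM1 (-0.088) and RRP1B (0.45) between KD3 and KD2, for NOC2L (-0.57), NOLC1 (0.065) and PES1 (-0.018) between KD1 and KD2, and for NPM1 (-0.067) and RRP12 (0.17) between KD3 and KD1. With that probe set 6 calls were lost without a turn of sign, and with centring 6. Leaving out any 1 of the control siRNA or untreated arrays, or both near copies together, or using the replicate block, called 0 of the 33 genes. With the control siRNA mean as reference, the lowest array median was -0.19 (MCM2 siRNA), and against the median of all 39 siRNA arrays the highest was 0.19 (CTNNB1 siRNA). MCM2 siRNA was the lowest under all alternatives, and the highest was ABL1 or ETS1 siRNA under 4 of them. The share of pairs with rho of at least 0.5 was 14.2% without centring (all genes 4.35%), 4.92% with Pearson's r and 5.87% with the probe sets of largest variance. For the shares without centring batch differences enter, and for the other 2 the cause was not tested. The medians after MAP2K1 and CEBPZ siRNA kept their direction under all alternatives, and of 22 single values named in those arrays 15 moved by more than the SD of the other arrays when set against the control siRNA mean. Of the 33 genes, 5 lie below the noise limit, where dim signal limits what can be seen.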

Other observations

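The array of FOXM1 siRNA held extremes in both directions. It was the lowest of the 39 for GAR1 (-0.39), NOLC1 (-0.32), NPM3 (-0.80) and RRS1 (-0.37), and the highest for RRP1B (0.41), POLR1A (0.35), POLR1B (0.28) and DDX21 (0.29), while its median over the 33 genes was -0.02. A dim second probe set of RRP12 followed NPM3 there, at -0.72, while the probe set used for RRP12 was at 0.01.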
